A study of Mus musculus with 16 samples.

Results

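The 10 genes described here belong to bone morphogenetic protein (BMP) signalling. They are the ligand gene Bmp4, the protease gene Bmp1, the receptor genes Bmpr1a and Bmpr2, the antagonist genes Sostdc1 and Grem1, and the target genes Id1, Id2, Id3 and Id4. Members were chosen by symbol, as every array probe that the platform annotation pairs with one of these names, which gave 16 probes out of 25697. All 16 were detected on at least 4 arrays, so 0 members were dropped, and the 10 genes stand among 9560 genes or unnamed probes that were tested.

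BMPs are secreted growth factors that bind type I and type II serine-threonine kinase receptors on the cell surface. The activated receptors phosphorylate Smad1, Smad5 and Smad9, which enter the nucleus with Smad4 and switch on target genes, of which the Id genes are among the most direct. Antagonists outside the cell bind the ligands and keep them from the receptors. In bone the pathway drives mesenchymal cells towards the osteoblast fate.

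RNA came from calvarial osteoblasts in primary culture (cells that form skull bone), isolated by collagenase from C57BL6/J mice of mixed sex aged 3 to 9 days. Cells were transfected with a scrambled siRNA (SC) or with BICC1_1, BICC1_2 or BICC1_3, which are 3 siRNAs against Bicc1, the gene of an RNA-binding protein. RNA was taken 48 hours later and put on Illumina single-colour bead arrays, 4 per group and 16 in all. No untransfected cells are among the samples, so all groups share the transfection, and whether replicates were separate cultures or pools of mice is not stated. The p-values thus reflect array-to-array spread alone, and some or all of that spread could be technical.

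Bicc1 itself was checked first. With SC its 4 log2 intensities were 10.59, 10.66, 10.59 and 10.38. They were 9.51, 9.81, 9.88 and 9.42 with BICC1_1, and 8.87, 9.04, 9.27 and 8.69 with BICC1_2. The arrays labelled BICC1_3 gave 10.70, 10.39, 10.39 and 10.33, which overlap SC. Bicc1 was lower past the test with BICC1_1 (log2 difference -0.90, limma adjusted p = 0.0345) and with BICC1_2 (-1.59, adjusted p = 7.98e-06), whereas the arrays labelled BICC1_3 showed no detectable fall (-0.10, adjusted p = 0.776). A direction drawn from that last group is thus one in arrays where the intended knockdown was not seen.

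The arrays had median intensities of 84.8 to 111.3 and detected 11990 to 12863 probes. Replicate 1 of the arrays labelled BICC1_3 and BICC1_1 replicate 3 stood apart: the median of 55 ribosomal protein genes lay at -0.81 and -0.46 log2 against the mean of 13 other arrays, which spanned -0.05 to 0.03. BICC1_2 replicate 3 did so to a smaller degree (-0.10). Some of the results that rest on these arrays are given with and without them, and others only with them. Of 11 osteoblast markers on the array, 7 were detected on at least 4 arrays, while the late osteoblast genes Bglap, Ibsp and Dmp1 and also Postn were not. The sums given here take in every marker on the array, detected or not. Summed osteoblast marker intensity was 48904 to 52470 in SC and 45314 to 59874 with BICC1_1. It was 50662 to 55500 with BICC1_2 and 51269 to 63446 in the arrays labelled BICC1_3. Macrophage markers, 8 of 10 detected and Ptprc and Itgam not, summed to 6164 to 7229 in SC and 6729 to 10836 with BICC1_1. They summed to 5443 to 6946 with BICC1_2 and 7095 to 7565 in the arrays labelled BICC1_3. The BICC1_2 range thus lay below that of the arrays labelled BICC1_3. Skeletal muscle markers, 5 of 10 detected and Myod1 and Ckm not, summed to 1822 to 2435 in SC and 2251 to 2616 with BICC1_1. They summed to 2519 to 2914 with BICC1_2 and 1951 to 2385 in the arrays labelled BICC1_3. Here the BICC1_2 range lay above those of SC and of the arrays labelled BICC1_3. Endothelial markers, 3 of 8 detected and Pecam1 and Cdh5 not, summed to 545 to 623 in SC and 517 to 607 with BICC1_1. They summed to 510 to 531 with BICC1_2 and 400 to 528 in the arrays labelled BICC1_3, both ranges below that of SC. The part of these shifts in the results below was not tested, and in bulk RNA fewer cells of a type and less RNA per cell cannot be told apart.

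The stretches just before the transcription start of Bmp4 and of 3 Id genes are shown because the question asked of these data is whether a change in a BMP ligand is mirrored at its targets. RefSeq's promoter table (GRCm38.p6) matched 7 of 10 members, and each stretch below is the 250 bases before the start, 5′ to 3′ on the gene's strand. Capitals mark GGCGCC, a GC-rich element bound by BMP-activated Smads and known from Id1, and GTCT or its reverse AGAC, the core Smad element.
Bmp4, chr14:46390670-46390919, minus strand: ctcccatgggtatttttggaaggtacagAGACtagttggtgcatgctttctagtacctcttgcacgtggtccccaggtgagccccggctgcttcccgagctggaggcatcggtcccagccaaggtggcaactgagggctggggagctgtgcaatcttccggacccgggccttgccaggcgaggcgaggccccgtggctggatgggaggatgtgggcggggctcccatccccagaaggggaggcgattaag
Id2, chr12:25096093-25096342, minus strand: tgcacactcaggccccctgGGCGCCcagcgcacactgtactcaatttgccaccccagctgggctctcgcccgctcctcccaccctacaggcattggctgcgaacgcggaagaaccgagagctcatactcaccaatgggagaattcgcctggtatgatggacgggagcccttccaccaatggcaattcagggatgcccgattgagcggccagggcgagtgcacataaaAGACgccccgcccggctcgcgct
Id3, chr4:136143572-136143821, plus strand: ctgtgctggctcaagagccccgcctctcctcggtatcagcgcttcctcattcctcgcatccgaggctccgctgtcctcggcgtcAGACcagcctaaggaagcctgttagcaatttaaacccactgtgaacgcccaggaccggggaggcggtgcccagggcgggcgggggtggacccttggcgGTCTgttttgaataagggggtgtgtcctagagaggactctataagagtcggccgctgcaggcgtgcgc
Id4, chr13:48260866-48261115, plus strand: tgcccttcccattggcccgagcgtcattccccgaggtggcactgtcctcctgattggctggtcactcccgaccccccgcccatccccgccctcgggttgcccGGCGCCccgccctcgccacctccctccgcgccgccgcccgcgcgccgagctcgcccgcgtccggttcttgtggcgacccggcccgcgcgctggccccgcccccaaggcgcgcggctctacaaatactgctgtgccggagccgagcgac

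GGCGCC, which reads the same on either strand, occurred once before Id2, 231 bases from the start, and once before Id4, at 148 bases. It also occurred once each before Bmpr1a, Bmpr2 and Grem1, so 5 of the 7 matched members hold it, targets or not. It did not occur in the windows of Bmp4 and Id3, and 9.59% of 32841 promoter windows of this length hold it. The 7 matched windows were 62.8% to 78.8% G or C, and the share over all windows was not matched for that. GTCT on either strand occurred once for Bmp4, once for Id2, 2 times for Id3 and 0 times for Id4, where 82.9% of all windows hold it. The 2 motifs share no overlapping match in these windows. These are matches of letters, not measured binding sites.

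Against SC, no member passed limma's test for any siRNA. The count was 0 of 10 with BICC1_1, where 0.0209% of all genes passed, 0 with BICC1_2 (0.0523% of all genes) and 0 in the arrays labelled BICC1_3 (0.0105%). At an unadjusted p under 0.05 there were 1 member with BICC1_1 (Sostdc1; 6.16% of all genes), 1 with BICC1_2 (Id4; 5.24%) and 3 in the arrays labelled BICC1_3 (Bmp4, Sostdc1 and Id3; 9.24%). The mean of the 3 siRNAs gave 0 members (0.0105% of all genes) and 1 at the unadjusted level (Sostdc1; 6.69%). Between siRNAs, 2 of 10 members differed past the test, Bmp4 and Sostdc1, both lower in the arrays labelled BICC1_3 than with BICC1_2, a comparison in which 0.115% of all genes passed. At the unadjusted level that comparison held 4 members, Id1 and Id3 besides those 2, where 8.28% of all genes were. Against BICC1_1, the count was 0 for BICC1_2 (0.282% of all genes) and 0 for the arrays labelled BICC1_3 (0.0732%), with Bmp4 and Sostdc1 the 2 members under 0.05 unadjusted in each (6.38% and 6.09%).

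Members were also counted by overlap, that is, by all 4 arrays of a group lying beyond all 4 of the other. Below SC there were 0 members with BICC1_1 (2.67% of all genes), 0 with BICC1_2 (2.73%) and 2 in the arrays labelled BICC1_3 (3.53%). Above SC there were 0 (3.68%), 1 (Id4; 3.87%) and 0 (3.06%). BICC1_2 had 2 members above BICC1_1 (2.34% of all genes) and 0 below (2.22%), and the arrays labelled BICC1_3 had 0 below BICC1_1 (1.65%) and 0 above (1.14%). The arrays labelled BICC1_3 had 3 members below BICC1_2 (2.08%) and 0 above (1.76%). Over the 10 members the median log2 difference from SC was -0.05, 0.09 and -0.09 for the 3 siRNAs in order, beside 0.00, 0.00 and -0.01 over all genes.

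**Figure D1:**
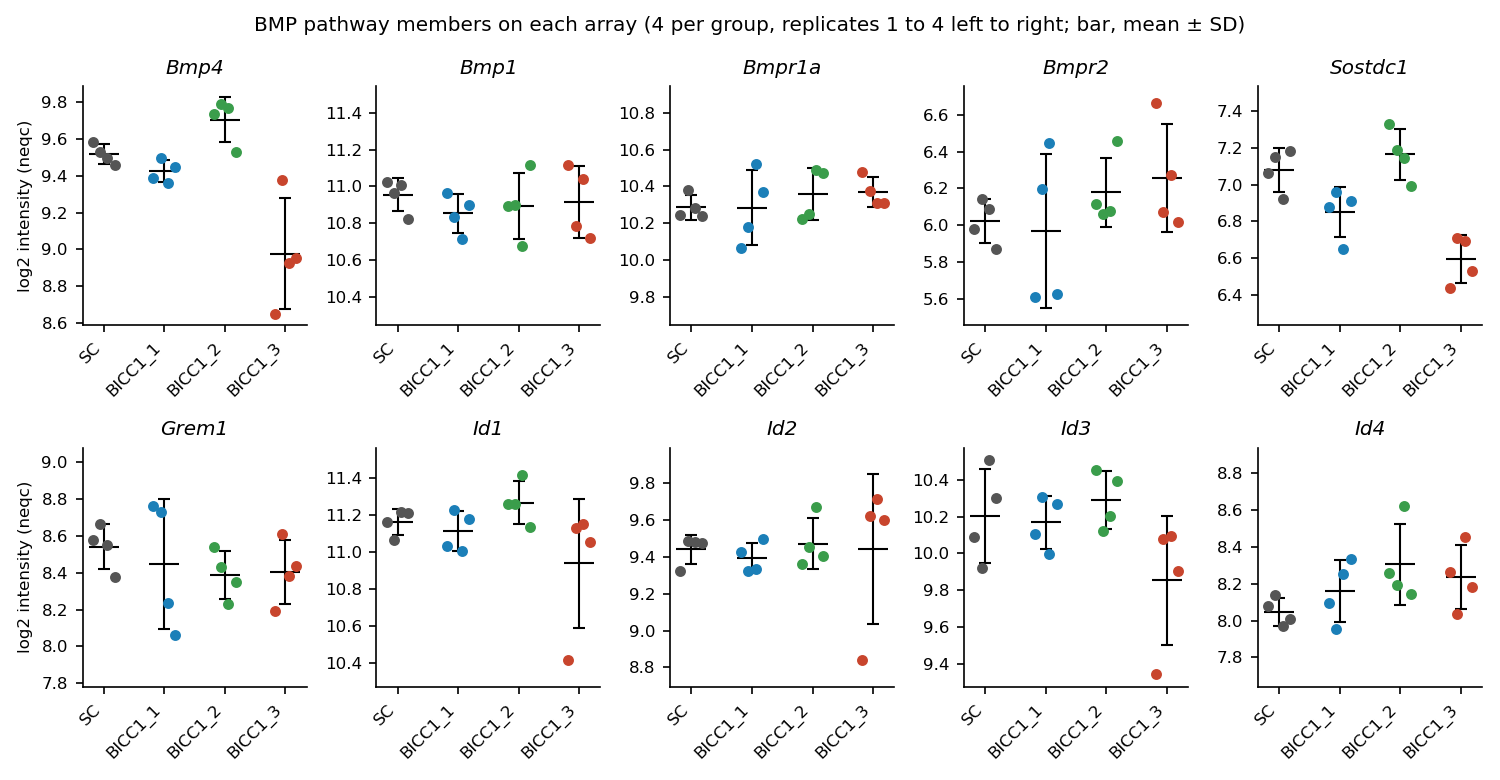
Normalised log2 intensity (vertical axis) of each of the 10 members on each of the 16 arrays, by group, with replicates 1 to 4 from left to right and the mean ± SD as bars. Bmp4 and Sostdc1 lie low in the arrays labelled BICC1_3, while Id1, Id2 and Id3 are each lowest on replicate 1 there. For Id1 and Id3, replicate 4 of that group also lies just below every SC array.

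Bmp4, the BMP ligand among the members, was level in SC and split the siRNA groups. The SC values were 9.58, 9.53, 9.49 and 9.46 log2, and those of BICC1_1 9.39, 9.50, 9.36 and 9.45. Bmp4 was at 9.74, 9.79, 9.77 and 9.53 with BICC1_2, and 8.65, 9.38, 8.93 and 8.96 in the arrays labelled BICC1_3. All 4 arrays labelled BICC1_3 lay below all SC arrays, which 3.53% of all genes also did in that comparison, and replicate 2 came nearest to SC.

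The Bmp4 mean in the arrays labelled BICC1_3 was 8.98 ± 0.30 against 9.52 ± 0.05 in SC (SD, n = 4 each), or 68.8% of SC (95% interval 58.2 to 81.4). That difference of -0.54 log2 (SE 0.11) had an unadjusted p of 0.000226 and missed limma's adjusted threshold (adjusted p = 0.155). It passed in 1 of 26 alternatives, without replicate 2 of that group (-0.67, adjusted p = 0.0107), and over all of them it lay at -0.67 to -0.40 with adjusted p from 0.0107 to 0.545. Against BICC1_2 the arrays labelled BICC1_3 stood at 60.4% (51.1 to 71.4), a log2 difference of -0.73 (SE 0.11, adjusted p = 0.0174), lower on 4 of 4 arrays. That call held in 19 of 26 alternatives (adjusted p 0.000218 to 0.421). It ended without BICC1_2 replicate 1, 2 or 3 (0.0773, 0.0843 and 0.0722) or, among the arrays labelled BICC1_3, replicate 3 or 4 (0.0600 and 0.0627), with separate fits (0.421), and without the 3 arrays that stood apart (-0.60, adjusted p = 0.0576).

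With BICC1_1 and BICC1_2 the siRNAs that lowered Bicc1 placed Bmp4 on either side of SC. With BICC1_1 the Bmp4 level was 93.7% of SC (79.3 to 111), and with BICC1_2 it was 114% (96.4 to 135). Neither passed the test (adjusted p = 0.968 and 1.00). BICC1_2 minus BICC1_1 was 0.28 log2 (SE 0.11, adjusted p = 0.635), with all 4 BICC1_2 arrays above all BICC1_1 arrays, as for 2.34% of all genes. Against BICC1_1 the arrays labelled BICC1_3 lay at -0.45 (adjusted p = 0.316), and without replicate 2 of that group at -0.58 (adjusted p = 0.0432).

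Sostdc1, whose secreted product (also called ectodin or Wise) antagonises BMP and Wnt signals, had the same order of groups as Bmp4. Its log2 intensity was 7.06, 7.15, 6.92 and 7.18 in SC and 6.88, 6.96, 6.65 and 6.91 with BICC1_1. It was 7.33, 7.19, 7.15 and 6.99 with BICC1_2, and 6.44, 6.71, 6.70 and 6.53 in the arrays labelled BICC1_3. The last 4 arrays lay below every SC and every BICC1_2 array, and replicate 1, one of the arrays that stood apart, was the lowest.

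Sostdc1 averaged 6.60 ± 0.13 in the arrays labelled BICC1_3 against 7.08 ± 0.12 in SC, or 71.5% of SC (62.2 to 82.1). The difference of -0.48 log2 (SE 0.09) had an unadjusted p of 0.000103 and an adjusted p of 0.110 by limma, and it passed in 1 of 26 alternatives, with array weights (-0.46, adjusted p = 0.0432). It was smaller under other processing of the intensities, -0.29 without background correction and -0.16 in the authors' deposited log2 table. Against BICC1_2 the arrays labelled BICC1_3 stood at 67.4% (58.6 to 77.4), -0.57 log2 (SE 0.09, adjusted p = 0.0244), lower on 4 of 4 arrays. That call held in 18 of 26 alternatives (adjusted p 0.00999 to 0.367), with values of -0.63 to -0.20. It ended when replicate 1 or 4 of that lower group was left out (0.0556 and 0.0952) or BICC1_2 replicate 1, 2 or 3 (0.102, 0.0866 and 0.0756), with separate fits (0.367), with the replicate block (0.0620), and without the 3 arrays that stood apart (-0.52, adjusted p = 0.0529). With BICC1_1 the Sostdc1 level was 85.3% of SC (74.2 to 98.0, adjusted p = 0.699). BICC1_2 gave 106% (92.3 to 122, adjusted p = 1.00), and BICC1_2 minus BICC1_1 was 0.32 (adjusted p = 0.330).

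Grem1 encodes gremlin, a secreted antagonist that binds BMP ligands including BMP4. Its 3 log2 differences from SC, in group order, were -0.10, -0.15 and -0.14 (SE 0.14 each; adjusted p = 0.970, 1.00 and 0.720). The BICC1_1 arrays were split, at 8.76 and 8.73 for replicates 1 and 2 and 8.24 and 8.06 for replicates 3 and 4, around an SC range of 8.38 to 8.66. None of these Grem1 differences passed the test.

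No difference of the receptor genes passed the test. Bmpr1a, a type I receptor gene, had an SC mean of 10.29 ± 0.07 and differed from it by 0.00, 0.07 and 0.08 log2 in the 3 siRNA groups in order, with 95% intervals inside -0.21 to 0.29 (adjusted p = 0.998, 1.00 and 0.750). Its second probe gave 0.01, -0.12 and 0.11. Bmpr2, the type II receptor gene, was dim (mean 6.11 log2) and noisy, with differences of -0.05, 0.16 and 0.24 (SE 0.18; adjusted p = 0.979, 1.00 and 0.641). Its highest values came from arrays that stood apart, 6.66 on BICC1_3 replicate 1 and 6.45 on BICC1_1 replicate 3, and also from BICC1_2 replicate 4 (6.46). A second Bmpr2 probe was detected on 10 of 16 arrays.

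Bmp1 is no BMP-family ligand despite its name: it encodes a metalloprotease that trims procollagens and cleaves the BMP antagonist chordin. The brightest of its 4 probes differed from SC by -0.10, -0.06 and -0.04 log2 (SE 0.10; adjusted p = 0.965, 1.00 and 0.899). The dimmest Bmp1 probe (mean 6.09) went the other way in the arrays labelled BICC1_3, at 0.28 (unadjusted p = 0.0370, adjusted p = 0.478 over all kept probes), and the middle pair lay at -0.03 and -0.02.

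**Figure D2:**
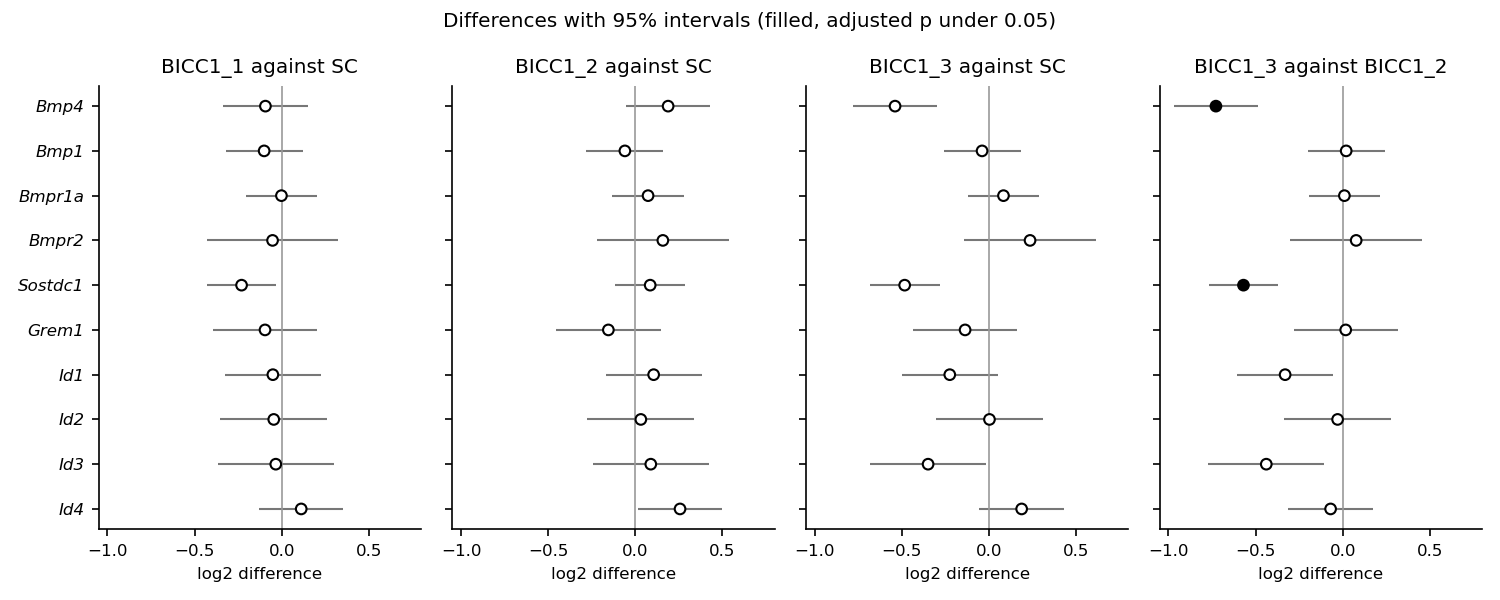
Log2 differences (horizontal axis) of the 10 members in 4 comparisons, with 95% intervals from the limma fit; filled points have an adjusted p under 0.05. Bmp4 and Sostdc1 are the 2 filled points, at -0.73 and -0.57 in the arrays labelled BICC1_3 against BICC1_2.

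The Id genes encode helix-loop-helix proteins that lack a DNA-binding region and hold back basic helix-loop-helix transcription factors. Id1 was 11.16, 11.06, 11.22 and 11.21 log2 in SC and 11.03, 11.23, 11.01 and 11.18 with BICC1_1. It was 11.26, 11.26, 11.42 and 11.14 with BICC1_2, and 10.42, 11.13, 11.15 and 11.05 in the arrays labelled BICC1_3. Replicate 1 of the last group lay 0.64 below any other array of it. Replicates 2 and 3 of that group lay inside the SC range, and replicate 4 (11.05) just below the lowest SC array (11.06).

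Id1 in the arrays labelled BICC1_3 stood at 85.6% of SC (70.7 to 104; log2 -0.23, SE 0.13, limma adjusted p = 0.593). Without replicate 1 the difference was -0.05 (adjusted p = 0.959). Id3 stood at 78.5% of SC (62.4 to 98.8; log2 -0.35, SE 0.16, unadjusted p = 0.0401, adjusted p = 0.535), from values of 9.34, 10.08, 10.10 and 9.90 against 10.09, 9.92, 10.51 and 10.30 in SC. Without replicate 1 it was -0.18 (adjusted p = 0.850). Most of the Id1 difference thus came from the array with low ribosomal transcripts, whereas Id3 kept -0.18 of its -0.35.

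Against BICC1_2 the arrays labelled BICC1_3 had less Id1 (79.5%, 65.7 to 96.3) and less Id3 (73.8%, 58.6 to 92.9) by their intervals, but neither passed over all genes (adjusted p = 0.507 and 0.463). Id3 lay below all BICC1_2 arrays on 4 of 4 arrays, as Bmp4 and Sostdc1 did, and 2.08% of all genes did so. Without replicate 1 the Id1 difference went from -0.33 to -0.16 and that of Id3 from -0.44 to -0.27. Bmp4 and Sostdc1 kept more of theirs, at -0.62 (adjusted p = 0.0257) and -0.52 (adjusted p = 0.0556, no longer past the test).

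Id2 went from 9.32, 9.48, 9.48 and 9.48 in SC to 8.84, 9.62, 9.71 and 9.60 in the arrays labelled BICC1_3, a mean difference of 0.00 log2 (SE 0.14, adjusted p = 0.997). The 3 arrays other than replicate 1 were above every SC array, and without replicate 1 the difference was 0.20 (adjusted p = 0.590), the opposite sign to Bmp4. A second, dimmer Id2 probe gave -0.05. Id4 was 8.08, 8.14, 7.97 and 8.01 in SC, 8.26, 8.19, 8.62 and 8.15 with BICC1_2, and 8.26, 8.04, 8.46 and 8.18 in the arrays labelled BICC1_3. All 4 BICC1_2 arrays were above SC, as for 3.87% of all genes, at 119% of SC (101 to 141; log2 0.26, SE 0.11, unadjusted p = 0.0391, adjusted p = 0.920), and the arrays labelled BICC1_3 lay at 0.19 (adjusted p = 0.594). Id4 thus did not follow Bmp4 and Sostdc1 downward in the arrays labelled BICC1_3.

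With BICC1_1 the 4 Id genes differed from SC by -0.05, -0.05, -0.03 and 0.11 log2 in order, and with BICC1_2 by 0.11, 0.03, 0.09 and 0.26, none past the test (lowest adjusted p = 0.920). Neither of the siRNAs that lowered Bicc1 gave a detectable change of an Id gene against SC.

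Whether the Id genes mirror Bmp4 and Sostdc1 was also asked array by array. Bmp4 and Sostdc1 themselves varied together over the 16 arrays (Pearson r = 0.88, Spearman rho = 0.91). Both were chosen with their group differences known and the arrays share those groups, so this is given as a description. Without the 2 arrays farthest from the Bmp4 median r was 0.86, and it was 0.84 to 0.91 with any single array left out. Within groups, as deviations from group means, r was 0.56 (permutation p = 0.0159, adjusted p = 0.0716), which did not pass.

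The relations with the Id genes were tested by permuting all 16 arrays without regard to group, so they include differences between groups. Adjusted p is over 9 relations, Bmp4 with Sostdc1 among them. By that test r passed for Id1 and Id3 with Bmp4, and not for Id2 and Id4. For Bmp4 and Id1, r was 0.78 and rho 0.75 (permutation p = 0.00053 and 0.00141, adjusted p = 0.00159 and 0.0048), and without the 2 farthest arrays r was 0.71 (p = 0.00615). For Bmp4 and Id3, r was 0.70 and rho 0.51 (permutation p = 0.00353 and 0.0456, adjusted p = 0.00794 and 0.0822), and without the 2 farthest arrays r was 0.44 (p = 0.112), so that relation rests on those arrays. Bmp4 with Id2 gave r = 0.31 and rho = -0.10 (permutation p = 0.235 and 0.721, adjusted p = 0.353 and 0.828). With Id4 it gave r = -0.09 and rho = -0.09 (permutation p = 0.744 and 0.736, adjusted p = 0.837 and 0.828).

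Sostdc1 gave the same division. With Id1, r was 0.69 and rho 0.74 (permutation p = 0.00053 and 0.0016, adjusted p = 0.00159 and 0.0048), and r was 0.56 without the 2 farthest arrays (p = 0.0374). With Id3, r was 0.64 and rho 0.56 (permutation p = 0.00502 and 0.0252, adjusted p = 0.00904 and 0.0568), falling to 0.33 without the 2 farthest (p = 0.255). With Id2 and Id4, r was 0.22 and -0.06 and rho -0.06 and -0.15 (permutation p = 0.417 and 0.837 for r, 0.841 and 0.577 for rho; adjusted p = 0.536 to 0.841).

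**Figure D3:**
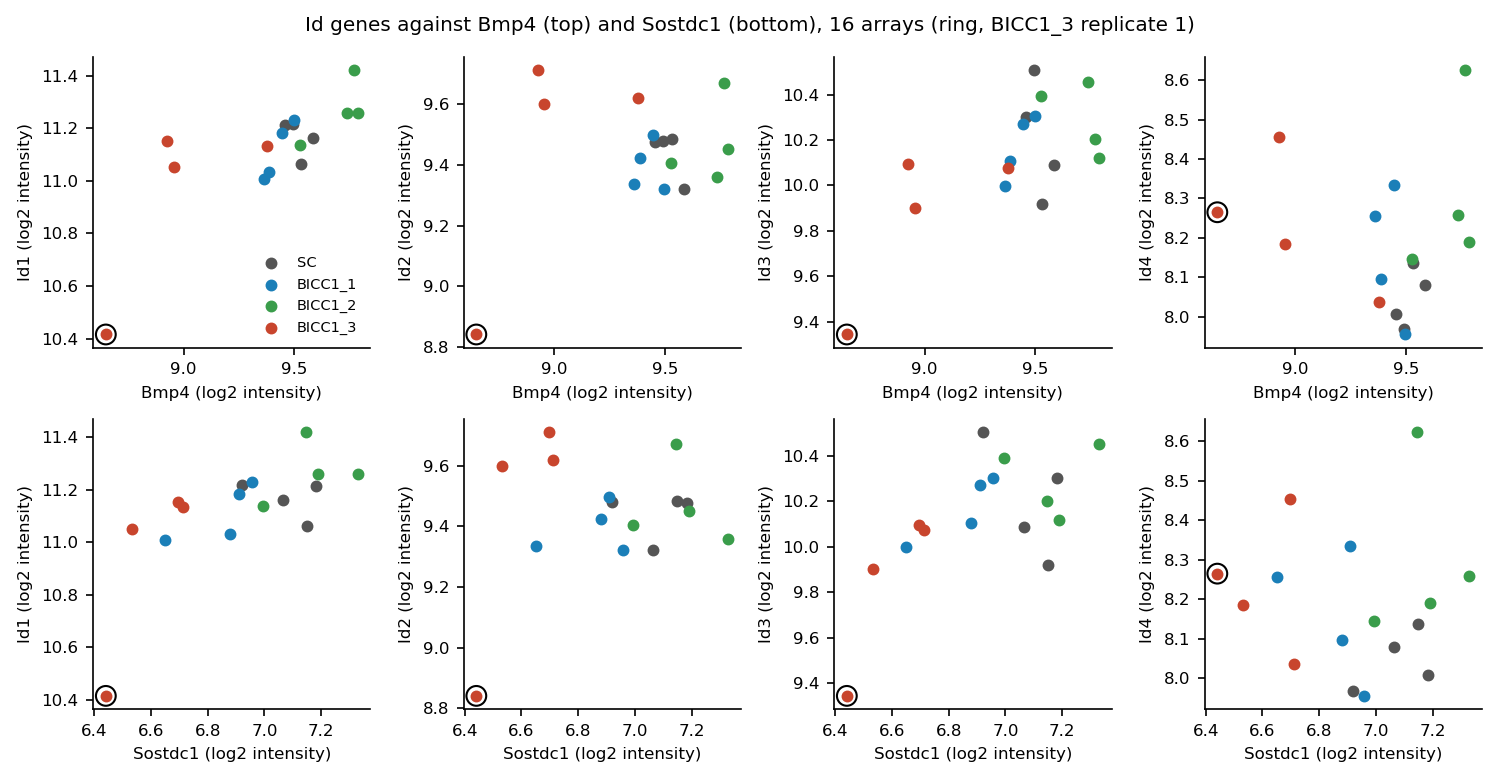
Log2 intensity of each Id gene (vertical axes) against Bmp4 (top row) or Sostdc1 (bottom row) on 16 arrays, coloured by group, with a ring around replicate 1 of the arrays labelled BICC1_3. That array sits at the lower left for Id1, Id2 and Id3; without it r for Bmp4 is 0.60 with Id1, -0.44 with Id2 and 0.43 with Id3.

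A single array carried much of these relations. Without replicate 1 of the arrays labelled BICC1_3, Bmp4 and Id1 correlated at r = 0.60 (permutation p = 0.0212, adjusted p = 0.0637) and rho = 0.69 (adjusted p = 0.0187). Sostdc1 and Id1 correlated at r = 0.61 (p = 0.0149, adjusted p = 0.0637) and rho = 0.68 (adjusted p = 0.0187), while r for Id3 was 0.43 with Bmp4 and 0.47 with Sostdc1 (adjusted p = 0.161 for each). The sign for Id2 turned, to -0.44 with Bmp4 and -0.33 with Sostdc1. Without all 3 arrays that stood apart it was -0.76 and -0.68 (permutation p = 0.00289 and 0.0109, adjusted p = 0.013 and 0.0328, n = 13), and Id1 was at 0.55 with each (adjusted p = 0.0912). As deviations from group means 0 of 9 relations passed, with r = 0.72 for Bmp4 and Id1 (permutation p = 0.00756, adjusted p = 0.068) and 0.39 once replicate 1 was also left out (adjusted p = 0.445).

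**Figure D4:**
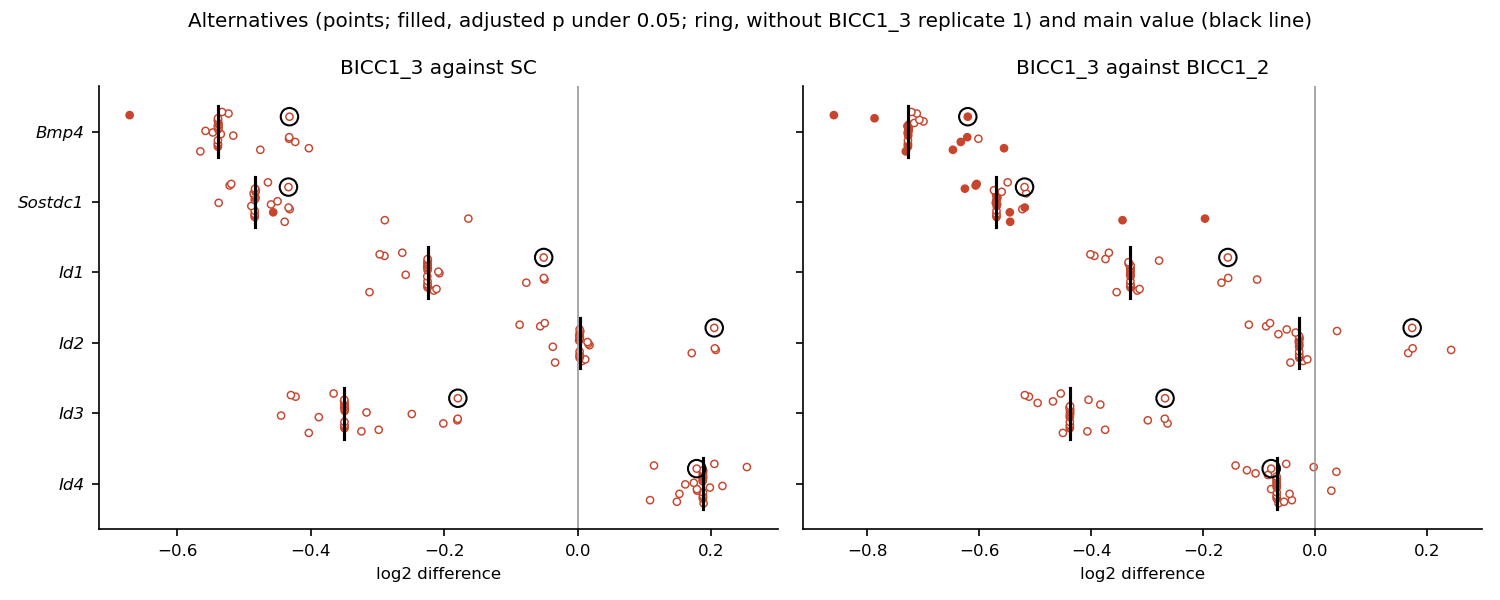
Log2 difference (horizontal axis) of Bmp4, Sostdc1 and the 4 Id genes in the arrays labelled BICC1_3 against SC (left) and against BICC1_2 (right). Points are the 26 alternatives, filled where adjusted p is under 0.05, rings mark the value without replicate 1, and black lines the main value. Bmp4 stays between -0.67 and -0.40 against SC, while Id1 lies at -0.05 and Id2 at 0.20 without replicate 1.

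Among 8831 other named genes, the 3 whose values were most like Bmp4 over the 16 arrays were Scx, the gene of the tendon transcription factor scleraxis (r = 0.90), Erp27 (r = 0.88), which encodes an endoplasmic reticulum protein, and Sostdc1 itself (r = 0.88). For Sostdc1 they were Bmp4 (0.88), Rab42 (0.84), the gene of a small GTPase, and Vps26c (0.83). Without replicate 1 of the arrays labelled BICC1_3 the correlations of Bmp4 with Scx and Erp27 were 0.89 and 0.79. For Id1 the 3 were Nnmt (0.95), the gene of nicotinamide N-methyltransferase, the Mediator subunit gene Med30 (0.94) and Hddc2 (0.94), and each dropped without that array, to 0.77, 0.73 and 0.73. These values describe likeness over arrays that share groups, and the top 3 of so many genes are high by selection.

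The rest of the pathway was followed in 5 lists of 71 other BMP genes, of which 40 were tested. Against SC, 0 of 40 passed in either direction for each siRNA and for the mean of the 3, and at an unadjusted p under 0.05 there were 1, 3, 3 and 3, or 2.5%, 7.5%, 7.5% and 7.5% of them, near the 6.16%, 5.24%, 9.24% and 6.69% of all genes. Their median log2 difference was -0.02 with BICC1_1, 0.07 with BICC1_2 and 0.02 in the arrays labelled BICC1_3, where the median of all genes was 0.00, 0.00 and -0.01. Of the other ligands 3 of 15 were tested. Gdf10, also called BMP3B, had 7.37 ± 0.19 in SC and 7.89 ± 0.12 with BICC1_2, a difference of 0.51 log2 (SE 0.11, adjusted p = 0.131). It lay at -0.02 with BICC1_1 and at 0.28 in the arrays labelled BICC1_3 (adjusted p = 0.984 and 0.484). BICC1_2 minus BICC1_1 was 0.54 for Gdf10 (adjusted p = 0.0491), the 1 call among the 40 genes in that comparison, where 0.282% of all genes passed; 0 were called in the other comparisons between siRNAs (0.0732% and 0.115% of all genes). The Gdf10 call held in 6 of 26 alternatives (adjusted p 0.0281 to 0.169) and not without the 3 arrays that stood apart (0.119). Bmp5 was dim and lay at 0.17 in the arrays labelled BICC1_3.

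Of 9 other receptors and co-receptors tested, 4 lay above 0 and 5 below in the arrays labelled BICC1_3 (median -0.01 log2), a comparison in which 48.0% of all genes lay above 0; the same share applies to the next 3 lists. Eng, the gene of the co-receptor endoglin, lay at 0.14, 0.18 and 0.21 in the 3 groups in order (adjusted p = 0.899, 0.941 and 0.491). Acvr2a, a type II receptor gene detected on 4 of 16 arrays, lay at 0.21, and Hjv, the co-receptor gene hemojuvelin, also detected on 4, at 0.16 in the mean of the 3 siRNAs. Of 6 extracellular antagonists and modulators, 4 lay above 0 (median 0.03), among them Fstl1 (0.17) and the chordin partner gene Twsg1 (0.12), while Fst, the gene of the activin and BMP binder follistatin, lay at -0.06 in the mean of the 3 siRNAs.

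Of 11 Smads and intracellular regulators, 7 lay above 0 and 4 below in the arrays labelled BICC1_3 (median 0.07). Skil, a corepressor of Smads, lay at 0.29 (SE 0.12, adjusted p = 0.501) and the inhibitory Smad gene Smad6, itself a BMP target, at 0.17 (adjusted p = 0.593). Smad5 lay at 0.12 in the mean of the 3 siRNAs. Of 11 other BMP target genes, 4 lay above 0 and 7 below (median -0.04), with Gata2 at -0.22 and the homeobox gene Dlx3 at -0.14. Some differences of the arrays labelled BICC1_3 from SC varied with the processing and the arrays used. Over the 26 alternatives Fstl1 spanned 0.00 to 0.29, Smad6 0.05 to 0.22 and Gata2 -0.31 to -0.08. With BICC1_1, 9 of the 11 targets lay below 0 (median -0.11, 0 past the test), where 50.6% of all genes lay above 0. Sp7, the gene of the osteoblast transcription factor osterix, was at -0.24 there (unadjusted p = 0.00906, adjusted p = 0.566) and at -0.14 in the mean of the 3 siRNAs.

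**Figure D5:**
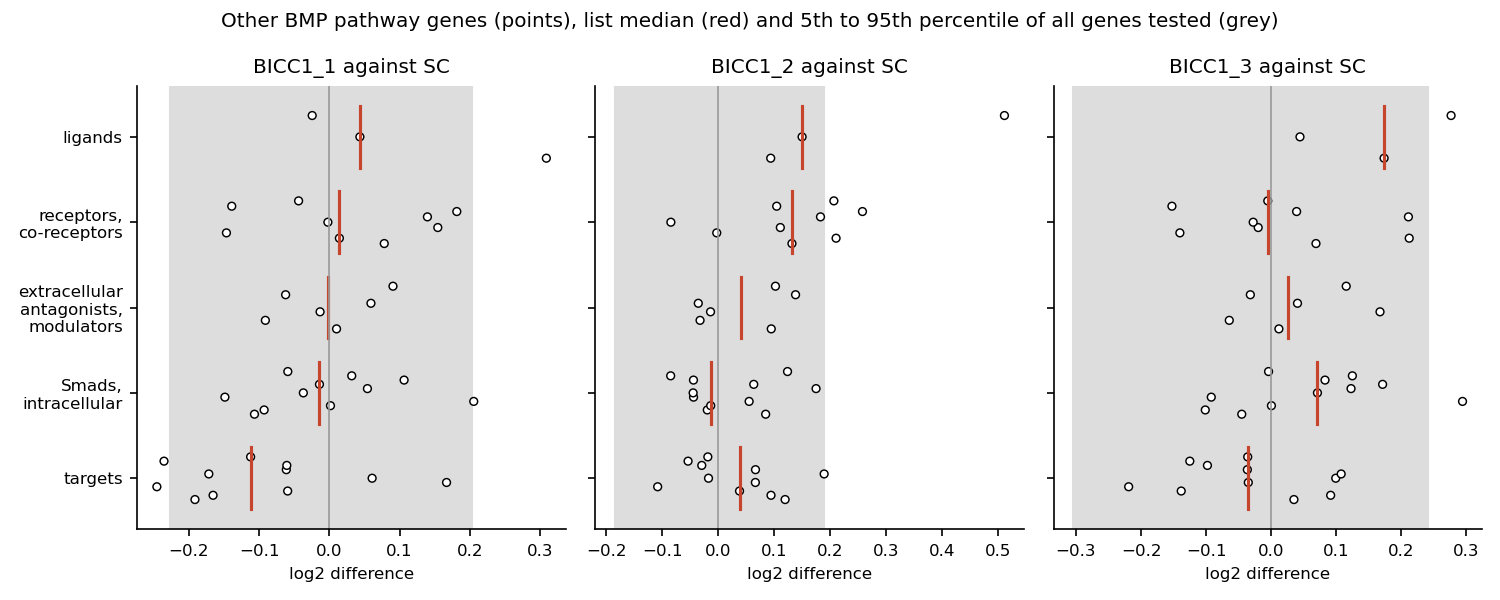
Log2 differences (horizontal axis) of 40 other BMP pathway genes in 5 lists for each siRNA against SC, with the list median in red and the 5th to 95th percentile of all genes tested in grey. No point passed the test in these 3 comparisons; Gdf10 is the point at 0.51 with BICC1_2.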

How the data were processed

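The deposited table of bead intensity values was deposited as non-normalised and is linear; the submitters' processing notes list GenomeStudio. The detection score beside each intensity in the deposited table is near 1 for bright probes, so detection p was taken as 1 minus it. The authors' deposited log2 table has equal quantiles on all arrays, and its transform is not given in the sources used here. Intensities were background-corrected, offset by 16, quantile-normalised and log2-transformed with neqc (limma 3.58.1, R 4.3.3). Of 25697 probes, 23978 carried 1 symbol, 0 several and 1719 none; symbols were checked by Entrez identifier against RefSeq (GRCm38.p6). Probes with detection p under 0.05 on at least 4 arrays were kept (12802), and the brightest stood for each gene (9560 tested, 8832 named).

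One limma fit over the 4 groups gave all comparisons. It has 12 residual and 3.96 prior degrees of freedom, and the median SE was 0.108 for BICC1_3 against SC. Adjusted p is Benjamini-Hochberg over all 9560, threshold 0.05, and intervals are 95%. The number of arrays limits the precision. Relations between genes were tested by two-sided permutation of arrays (100000), adjusted over 9. The fit and the correlations were tested on simulated data. Named genes are the members; of each pathway list, those past the test and the 2 largest differences in the arrays labelled BICC1_3 and in the mean of the 3 siRNAs; and the 3 genes most like Bmp4, Sostdc1 and Id1. Members and lists were chosen with earlier results of these data known. No 2 arrays held identical values.

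Alternatives were median scaling, no background correction, the authors' table, no or stricter detection filters, each probe alone, a replicate block, array weights, separate fits, and leaving out arrays. Same-numbered arrays of different groups showed no clear shared deviation. Their r was over 0.1 in 9 of 24 pairs (median -0.03, highest 0.61). Differently numbered pairs had it in 22 of 72 (median 0.02, highest 0.70). The numbers were thus not taken to pair samples in the main fit.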

Additional observations from a re-analysis of the deposited data

Results flagged for a closer look

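Bmp4 differed between siRNA groups: the arrays labelled BICC1_3 minus BICC1_2 gave -0.73 log2 (limma adjusted p = 0.0174). Sostdc1 did likewise, at -0.57 (adjusted p = 0.0244). For neither gene did either of these groups pass the test against SC.

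Within groups of 4 arrays, 4 of 40 sets of member values held an array far from the other 3. Chance alone gives about 1 in 20 for independent sets, but these sets share arrays. The matching share over all genes is not given here, so the count does not show an excess particular to the members. In the arrays labelled BICC1_3, replicate 1 was far below the others for Id1 (10.42 log2, with a gap to the nearest array of 0.863 of the group's range) and for Id2 (8.84, a gap of 0.872 of the range). The same array had low ribosomal protein transcripts (-0.81 log2), and its part in the Id values was not tested. BICC1_2 replicate 4 was far above its mates for Bmpr2 (6.46, a gap of 0.867 of the range). SC replicate 1 was below its mates for Id2 (9.32, a gap of 0.956 of the range), although the gap was only 0.16 log2.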

How the results depend on the processing

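The number of members past the test in the arrays labelled BICC1_3 against BICC1_2 was 2, and it was 1 with the replicate block, 0 with separate fits, 0 without the 3 arrays that stood apart, and 0 to 2 with 1 array left out. Against SC the arrays labelled BICC1_3 had 1 member past the test with array weights and 0 to 1 with 1 array left out, and against BICC1_1 0 to 1. Of 9 relations between Bmp4, Sostdc1 and the Id genes 5 passed; 3 passed without the 3 arrays that stood apart (these included both Id2 relations, with a negative sign), 1 without the 2 that stood apart most, 1 to 5 with 1 array left out, 0 as deviations from group means and 0 as deviations without replicate 1 of the arrays labelled BICC1_3, the last chosen after seeing the data. The 1 came from leaving out that replicate, and the cause was not tested. Bmp4 with Sostdc1, given above only as a description, is among the 9 and among the 5. It passed with any single array left out (permutation adjusted p up to 0.00081). Without that replicate it was the relation that passed, and no relation with an Id gene passed by r. The replicate block took no member past the test against SC. Separate fits have fewer arrays to estimate the spread. Under the alternatives, 0 of the member values past the test changed sign, but in the main fit only 2 had passed. These were Bmp4 and Sostdc1 in the arrays labelled BICC1_3 against BICC1_2, which kept their sign in 26 of 26 alternatives. Values not past the test were not all so steady. In the arrays labelled BICC1_3 against SC, Id2 kept its sign in 21 of 26 alternatives, whereas Id1 and Id3 did in 26 of 26. For the mean of the 3 siRNAs, Id2 kept its sign in 13 of 25. The slide could not be used as a block because the headers give none, and separate fits give no value for the mean of the 3 siRNAs. Dim members (Bmpr2, Sostdc1) lie near background, which limits their fold changes.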
